A study of Mus musculus with 42 samples.

Results

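The mitochondrial genome (mtDNA) encodes 6 of the genes that build the later complexes of the respiratory chain: mt-Cytb (cytochrome b of complex III), mt-Co1, mt-Co2 and mt-Co3 (the catalytic core of cytochrome c oxidase, complex IV), and mt-Atp6 and mt-Atp8 (membrane subunits of the ATP synthase, complex V). They were chosen by their values in IP against input in these data, so that contrast is a description here. Calls from the fits across all genes are given once beside the share of all genes called, and nothing is read from them. They are 6 of 37 mtDNA genes and of 47729 genes in the deposited values. All 6 were found by symbol, and all had reads in each of the 42 libraries.

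The libraries came from the livers of 3 mice of genotype Gfi1Cre/+;Rpl22HA/HA, untreated, in which cells with a history of the Gfi1 promoter carry an HA tag on the ribosomal protein Rpl22. The age is given as 30 days in one label and as 1 day in another. Per the study's methods, equal amounts of liver went to extraction of total RNA (input) or to immunoprecipitation with the HA antibody (IP). The input and IP RNA of each mouse was split over 7 protocols. TruSeq was used with 70 ng (Tru70) and 4 ng (Tru4), SMART-Seq v4 with 4 ng (SMTseq4) and 0.25 ng (SMTseq0.25), and NEBNext Ultra Directional (NEB), NuGEN Ovation V2 (NuG) and SMARTer Stranded Total RNA (SMTer) with 4 ng. Each group held 3 libraries, 1 per mouse. The SMART-Seq v4 libraries were sequenced at another centre, so that kit and centre cannot be told apart. In 4 protocols (Tru4, SMTer, NuG and NEB) the input and IP of mouse 3 were exchanged against the labels, which concerns 8 libraries and follows the feature numbers of the study. All values below use the exchanged fractions unless stated.

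Mitochondrial mRNAs are transcribed from mtDNA as long precursors, cut out at flanking tRNAs, given short poly(A) tails and translated by ribosomes of the mitochondrion, which do not contain Rpl22. Liver is rich in mitochondria because of the high oxidative demand of hepatocytes. In a bulk fraction, fewer cells of a type and less RNA per cell cannot be told apart.

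Several of these genes have near-identical copies in the nuclear genome, and their sequences decide which deposited value holds them. The following stretches are read from GENCODE M21 transcripts on GRCm38 and are written in the direction of the gene. The mtDNA genes lie on the plus strand of chrM. The first pair shows mt-Co3 (chrM:8907-8966) beside the pseudogene Gm28437 on the minus strand (chr1:24613612-24613671), with no difference.
mt-Co3: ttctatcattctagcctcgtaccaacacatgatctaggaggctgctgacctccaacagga
Gm28437: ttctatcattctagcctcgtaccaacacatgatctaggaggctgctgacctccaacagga
The second pair shows the annotated start of Gm29216, the copy of mt-Co1, at base 1054 of the gene (chrM:6381-6440), on the minus strand (chr1:24616138-24616197). Capitals mark the 6 bases that differ, all of which lie at this edge. In a blastn search the match began at base 1063, and stretches of 60 bases were shared from base 1067 on. The copied sequence may therefore begin after the annotated start.
mt-Co1: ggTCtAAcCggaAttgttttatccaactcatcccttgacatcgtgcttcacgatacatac
Gm29216: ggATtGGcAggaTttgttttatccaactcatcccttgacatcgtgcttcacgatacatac
The third pair shows mt-Cytb (chrM:14687-14746) beside its closest annotated relative, the processed pseudogene Gm11410 on the plus strand (chr4:80004531-80004590), with 4 differing bases in capitals.
mt-Cytb: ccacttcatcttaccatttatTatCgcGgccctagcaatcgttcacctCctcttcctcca
Gm11410: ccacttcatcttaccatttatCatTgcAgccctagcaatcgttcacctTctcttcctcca
The last stretch is the junction of the ATPase genes (chrM:7919-7977), where capitals mark the 43 bases that belong to both mt-Atp8 and mt-Atp6.
mt-Atp8/mt-Atp6: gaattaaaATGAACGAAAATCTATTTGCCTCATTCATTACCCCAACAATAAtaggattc

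Over their whole length, the chromosome 1 copies of mt-Co2, mt-Atp6 and mt-Co3 matched the mtDNA genes base for base. Gm28661 (chr1:24614885-24615565) was identical to mt-Co2 over 681 bases, Gm10925 (chr1:24613974-24614651) to mt-Atp6 over 678 bases and Gm28437 (chr1:24613189-24613971) to mt-Co3 over 783 bases. Gm29216 (chr1:24615706-24616197) matched the last 492 bases of mt-Co1 at 486 of them. On chromosome 2, Gm13340 was 97.6% identical to the whole of mt-Co1 and Gm13341 95.9% identical to mt-Co2. Reads had been trimmed to 60 bases. Of all stretches of 60 bases, 625 of 625 in mt-Co2, 724 of 725 in mt-Co3, 619 of 622 in mt-Atp6 and 691 of 1486 in mt-Co1 occurred without a difference in another annotated transcript, and 0 of 1085 did in mt-Cytb. For mt-Atp8 the number was also 0 of 145. The 204 bases of mt-Atp8 would fall, by their distance from mt-Co3, at chr1:24614609-24614812, which is mostly in the 233 bases without annotation between Gm10925 and Gm28661.

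The exon counts leave out reads with more than 1 alignment, and in the 36 libraries outside SMTer they held mt-Cytb and mt-Co1 and almost nothing of the other members. The highest exon count over these libraries was 46 for mt-Co2, 63 for mt-Co3, 4 for mt-Atp6 and 2 for mt-Atp8, and mt-Atp8 had no count in 33 of them. mt-Atp8 thus had almost no counts although no annotated transcript shares a stretch of 60 bases with it, and the chromosome 1 sequence at its place was not analysed here. The deposited RPKM values (reads per kilobase of gene, scaled to mapped reads) do include such reads. Multiplied by the gene span and the mapped reads, they returned whole reads for all 6 members in all libraries. Behind the RPKM of mt-Atp6 in the 36 libraries stood 5365 to 1245818 reads. The exon count per 100 such reads had a median of 51.2 for mt-Cytb and of 24.3 for mt-Co1. The libraries were paired-end, and a pair may count once in the exon counts and by each of its reads in the RPKM. The values are therefore not percentages of reads kept. That of mt-Cytb is the level of a gene without a shared stretch of 60 bases, with 49.9 ± 0.0418 in Tru70 input. Over 42 libraries, the RPKM of the copy divided by that of its gene was 0.995 to 1.02 for mt-Co2, 0.998 to 1.01 for mt-Atp6 and 0.931 to 1.09 for mt-Co3. Reads of a gene and of its copy cannot be separated in RPKM, and a level of mt-Co2, mt-Co3, mt-Atp6 or the end of mt-Co1 below is a level of both. The same may hold for mt-Atp8, which had at most 2 exon counts in a library beside up to 406428 reads behind the RPKM.

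**Figure D1:**
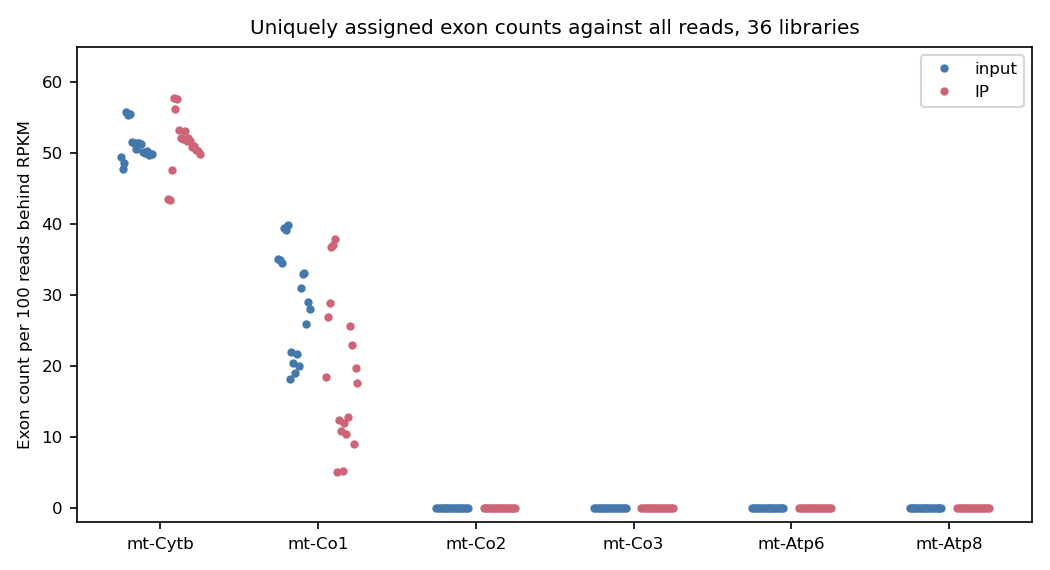
Exon count per 100 reads behind the RPKM (y axis) for the 6 members (x axis) in the 36 libraries outside SMTer, with input in blue and IP in red. mt-Cytb lies at 43.4 to 57.9, mt-Co1 at 5.13 to 39.9, and the other members lie at 0 or just above it. The libraries were paired-end, so the values are not percentages of reads kept.

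In the exon counts, which hold little beyond mt-Cytb and mt-Co1, the 6 members together made up a small percentage of each library and a much smaller one after IP. In Tru70 the share of the members in all counts was 2.06% ± 0.262 in input and 0.115% ± 0.0320 in IP (SD, n = 3). In this unit NuG had the highest mean shares, 4.10% ± 0.289 in input and 0.782% ± 0.0300 in IP, and in Tru4 they were 3.33% ± 0.435 and 0.175% ± 0.0552. The input shares were 2.25% ± 0.261 in NEB, 0.949% ± 0.0399 in SMTseq4 and 1.09% ± 0.120 in SMTseq0.25, against IP shares of 0.129% ± 0.0355, 0.102% ± 0.0180 and 0.109% ± 0.0170. SMTer was read from RPKM, and the members had 0.591% ± 0.124 of summed RPKM in input and 0.0452% ± 0.0234 in IP. Input and IP did not overlap in any of the 7 protocols. Units that cover all 6 genes gave higher shares outside SMTer and another order. Of summed RPKM, the members had 16.4% ± 2.53 in Tru4 input, 12.3% ± 1.73 in Tru70, 9.23% ± 2.16 in NEB, 8.63% ± 0.982 in SMTseq0.25, 8.37% ± 0.581 in SMTseq4 and 8.32% ± 0.228 in NuG. In IP these were 0.906% ± 0.343, 0.889% ± 0.186, 0.469% ± 0.170, 0.442% ± 0.0524, 0.443% ± 0.0572 and 1.72% ± 0.374. The summed RPKM of all genes holds the shared reads again under the copies, which these shares leave out of the members. With the copies added, the SMTer shares were 1.01% ± 0.221 in input and 0.0797% ± 0.0421 in IP. Reads behind the RPKM made up 5.89% ± 0.826 of mapped reads in Tru4 input and 5.25% ± 0.344 in NuG input, which overlapped.

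The log2 ratio of the IP share to the input share of the same mouse was -4.20 ± 0.301 in Tru70, -4.30 ± 0.371 in Tru4, -4.16 ± 0.283 in NEB and -2.39 ± 0.0959 in NuG (mean ± SD, n = 3 mice). It was -3.23 ± 0.327 in SMTseq4, -3.33 ± 0.126 in SMTseq0.25 and -3.84 ± 0.766 in SMTer. These means and their order depend on the unit. The other deposited unit gave -4.25 in SMTseq4, -4.29 in SMTseq0.25 and -1.04 in SMTer, reads behind the RPKM over mapped reads gave -3.34 in Tru70, and a total without mtDNA, rRNA and copies gave -3.46 in NuG. The SMTer value of -1.04 is from exon counts, where 76.8% to 93.8% of counted and unassigned reads had no feature. In the other protocols this was at most 27.6%, in NuG. Per 100 reads behind the RPKM, SMTer held 1.31 exon counts of mt-Cytb in input and 7.83 in IP. For mt-Co1 these were 0.655 and 2.08, so its exon counts kept the fractions unequally. With the fractions as labelled, the means of NEB, NuG, SMTer and Tru4 were -1.43, -0.77, -1.58 and -1.51, since mouse 3 then had the opposite sign. Without replicate 3 they were -4.20, -2.37, -4.06 and -4.35.

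mt-Cytb can be followed in reads that align once, and mt-Co1 only in part, as 691 of its 1486 stretches of 60 bases are shared. In Tru70 the exon count of mt-Co1 per 100 reads behind the RPKM was 27.7 in input and 15.5 in IP. Its log2 ratio of IP to input RPKM in Tru70 was -3.57, less far below 0 than the CPM ratio given next. In Tru70, mt-Cytb had 7083, 7336 and 8500 CPM in the input of mice 1, 2 and 3 and 395, 565 and 558 CPM in IP. mt-Co1, the subunit that holds the copper and heme centre of oxygen reduction, had 10957, 13112 and 14783 CPM in input and 387, 765 and 785 CPM in IP. In both genes every IP library lay far below every input library, and the IP of mouse 1 was the lowest. The log2 ratio of IP to input CPM in Tru70 was -3.93 ± 0.233 for mt-Cytb and -4.39 ± 0.385 for mt-Co1 (SD, n = 3 mice). In NuG it was -2.62 ± 0.252 and -2.31 ± 0.218, and in SMTseq4 -3.37 ± 0.181 and -3.04 ± 0.622. In the edgeR fit across all genes, both passed as lower in IP in the 6 protocols with exon counts, where mt-Cytb and mt-Co1 were the members tested, with mt-Co2 beside them in Tru4. In the limma fit of SMTer RPKM all 6 did. Of all genes tested, 16.7% were lower in IP in Tru70, 24.2% in Tru4, 5.34% in NEB, 20.9% in NuG, 28.7% in SMTseq4, 17.1% in SMTseq0.25 and 6.99% in SMTer. As the members were selected on this contrast, nothing is read from these calls.

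On the RPKM scale, which covers all 6 genes, the members differed among themselves in how far they fell. Over the 21 input libraries the median RPKM was 8866 for mt-Co1, 7989 for mt-Atp6, 7146 for mt-Co3, 5791 for mt-Co2, 5517 for mt-Atp8 and 4518 for mt-Cytb. Over the 21 IP libraries the order was another, with 1534 for mt-Co3, 742 for mt-Co1, 398 for mt-Co2, 282 for mt-Atp6, 245 for mt-Cytb and 101 for mt-Atp8. The ranges over protocols overlap between neighbours in both orders. Within each protocol, all IP libraries were below all input libraries for each of the 6 genes. The log2 ratio of IP to input RPKM was below 0 in 126 of 126 combinations of gene, protocol and mouse. The genes were chosen on this contrast, and the share of all genes that do the same is not given here. The 7 protocols repeat the same 3 mice, so nothing is read from these counts.

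**Figure D2:**
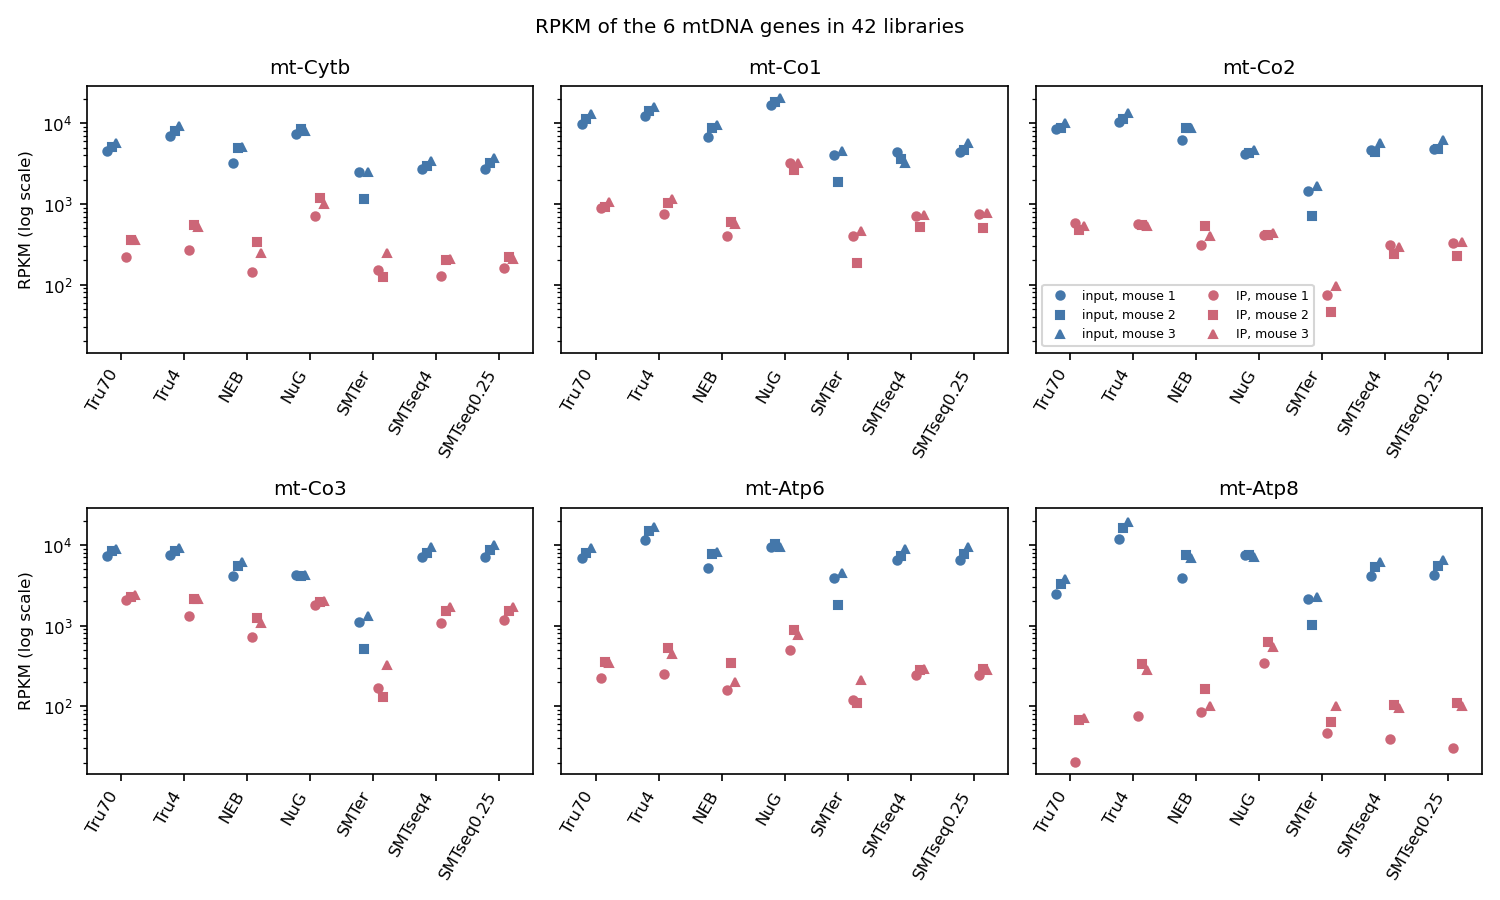
RPKM on a log axis for each member (panels) in the 7 protocols (x axis), with input in blue, IP in red and a symbol per mouse. In every panel and protocol the 3 IP libraries sit below the 3 input libraries, with the narrowest gap for mt-Co3 and the widest mostly for mt-Atp8.

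mt-Co3, a core subunit of complex IV, fell least. In Tru70 it had 7293, 8290 and 8970 RPKM in input and 2082, 2233 and 2409 RPKM in IP, a log2 ratio of -1.87 ± 0.0498 (SD, n = 3 mice). In NuG its input of 4277, 4124 and 4222 RPKM stood against 1779, 1971 and 2009 RPKM in IP, with a log2 ratio of -1.13 ± 0.114. Among the 21 pairs of protocol and mouse, mt-Co3 had the highest ratio of the members in 18 and mt-Co1 in the other 3. In Tru70 it rose from 18.2% of the summed RPKM of the 6 genes in input to 51.0% in IP, and in Tru4 from 11.6% to 41.2%.

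mt-Atp8, the short accessory subunit of the ATP synthase, fell most. In Tru70 it had 2483, 3308 and 3765 RPKM in input and 20.4, 67.4 and 71.9 RPKM in IP, a log2 ratio of -6.09 ± 0.733. In Tru4 the inputs of 11880, 15998 and 19347 RPKM stood against 76.0, 338 and 281 RPKM in IP, with a log2 ratio of -6.32 ± 0.882. Its ratio was the lowest of the members in 20 of the 21 pairs. The margin was wide in the TruSeq and SMART-Seq v4 protocols and small in NuG, where mt-Atp8 had -3.92 ± 0.470 and mt-Atp6 -3.81 ± 0.380, and in SMTer, where they had -4.67 ± 0.769 and -4.48 ± 0.505. These differences in NuG and SMTer are within the spread between mice.

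mt-Atp6, which forms part of the proton channel, and mt-Co2, which receives electrons from cytochrome c, lay between these. In Tru70, mt-Atp6 had 6974, 7989 and 9184 RPKM in input and 227, 349 and 338 RPKM in IP, and its log2 ratio was -4.74 ± 0.215. mt-Co2 had 8516, 8854 and 10169 RPKM in input and 575, 474 and 528 RPKM in IP, with a log2 ratio of -4.13 ± 0.206. mt-Cytb had 4518, 5040 and 5683 RPKM against 223, 359 and 359 RPKM, with -4.04 ± 0.269. mt-Cytb, which has no close annotated copy, and mt-Co2, which is identical to its copy, differed by less than the spread between mice in this protocol. mt-Co3 has an identical copy on chromosome 1 as well, and the part of the copies in these ratios was not tested.

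**Figure D3:**
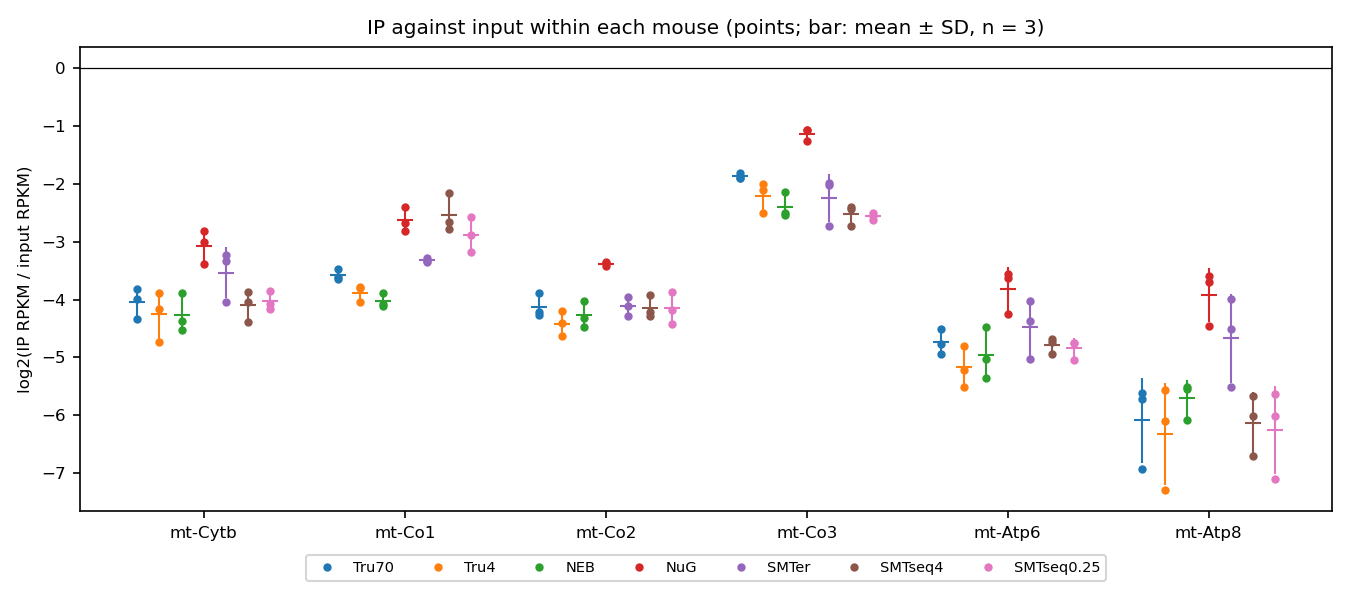
log2 ratio of IP to input RPKM of the same mouse for each member (x axis), with a colour per protocol, points for the 3 mice and a bar for mean ± SD. mt-Co3 lies nearest to 0 in each protocol by its mean, mt-Atp8 farthest, and NuG has the smallest mean fall for each member but mt-Co1, where SMTseq4 has -2.53 and NuG -2.63.

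The median log2 ratio of the 6 members was -4.09 in Tru70, -4.34 in Tru4, -4.26 in NEB, -3.22 in NuG, -4.12 in SMTseq4, -4.09 in SMTseq0.25 and -3.82 in SMTer. The median over all genes tested on log2(RPKM + 1) was 0.14, 0.15, -0.02, 0.65, -0.35, -0.37 and -0.06 in the same order. NuG had the smallest fall of the members and the highest median over all genes, where 461 of 7436 genes were still called lower in IP. The ratios of the members are of RPKM without the added 1, and a link between these medians was not tested.

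mt-Co1 can be split at the annotated start of its chromosome 1 copy, because reads on Gm29216 are counted apart. The 1053 bases without that copy and the 492 bases with it gave different ratios. In Tru70 the part without the copy had 7978, 10346 and 11286 mapped-read-scaled reads per kilobase in input and 246, 557 and 575 in IP, and the part with it had 14090, 13775 and 16561 in input and 2299, 1690 and 2108 in IP. The log2 ratio was -4.51 ± 0.444 without the copy and -2.87 ± 0.224 with it. In SMTseq4 the values were -3.81 ± 0.702 and -1.99 ± 0.295, in Tru4 -4.63 ± 0.623 and -3.03 ± 0.115, and in NEB -4.57 ± 0.382 and -2.96 ± 0.392. The values of the mice did not overlap between the parts in these protocols, nor in NuG and SMTseq0.25. In SMTer the parts overlapped, with -3.33 ± 0.0721 and -3.31 ± 0.197. The part with the copy had the higher ratio in 20 of the 21 pairs of protocol and mouse. The copied part is also the 3′ end of the gene, so position along the mRNA and sharing with the copy cannot be told apart. In input, SMTseq4 had 2706, 2579 and 2164 such reads per kilobase before the copy against 8150, 5797 and 5631 within it, while NuG had 19877, 21895 and 24454 against 10355, 11674 and 12294.

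**Figure D4:**
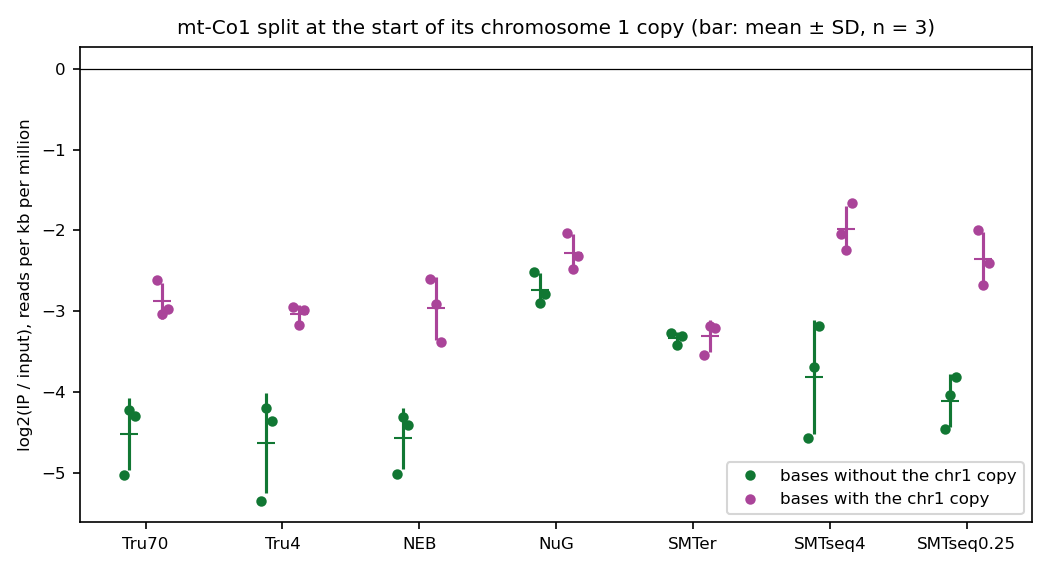
log2 ratio of IP to input mapped-read-scaled reads per kilobase in the 1053 bases of mt-Co1 without the chromosome 1 copy (green) and in the 492 bases with it (purple), by protocol, with points for the 3 mice and a bar for mean ± SD. The purple values lie above the green in all protocols but SMTer, where they meet.

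Replicates of the same number kept part of their order across protocols, which start from the same RNA. The number was taken to mark the mouse, and the counts by mouse below rest on that. The read totals listed by the study run in the opposite order of replicates in all protocols but those of SMART-Seq v4. mt-Atp8 was lowest in the IP of mouse 1 in 7 of 7 protocols, and mt-Cytb, mt-Co3 and mt-Atp6 each in 6 of 7. mt-Co1 was lowest there in 3 of 7 and mt-Co2 in 2 of 7. In input, mouse 3 was highest in 7 of 7 protocols for mt-Co2, in 6 of 7 for mt-Cytb, mt-Co1, mt-Co3 and mt-Atp6, and in 5 of 7 for mt-Atp8. The protocols are repeated measurements of 3 mice and not further animals.

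The comparison of protocols within a fraction was not used to choose the genes and was tested with edgeR's quasi-likelihood test, adjusted by Benjamini-Hochberg over all genes. Since the exon counts hold only part of the members, the fit was also run on the reads behind the RPKM, a choice made after seeing the data. Its log2 differences are given with standard errors derived from the F statistic of the test. Each is the absolute log2 difference over the square root of F, here and for the nuclear genes below. They restate that test and are not a separate estimate of precision. Replicates with the same number were taken as the same mouse in all protocols, and the value with the mouse as a block is given where it changes a call.

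Between the TruSeq protocols the difference was largest for mt-Atp8. The 70 ng libraries were size selected and the 4 ng libraries were not, and end repair and PCR cycles differed as well, so that RNA amount and these steps cannot be told apart. In input, Tru70 against Tru4 had a log2 difference of -2.35 ± 0.212 for mt-Atp8 (adjusted p = 0.0053), -0.87 ± 0.152 for mt-Atp6 (adjusted p = 0.0283) and -0.72 ± 0.128 for mt-Cytb (adjusted p = 0.0296). mt-Co1, mt-Co2 and mt-Co3 had -0.37, -0.41 and -0.07 and did not pass. These 3 of 6 members stood against 3.38% of all genes called in either direction. With the replicate block 6 of 6 passed, all lower in Tru70. Without replicate 1 or 2 the count was 0 and without replicate 3 it was 1. In the exon counts, where 3 members were tested, 1 passed against 0.981% of all genes: mt-Cytb, at -0.81 ± 0.130 (adjusted p = 0.0317), a call lost without replicate 1 or 2. In IP the difference of mt-Atp8 was -2.13 ± 0.490 and no member passed, with 0.0% of all genes called (0.0392% in the exon counts). In IP, 3 of 6 members had an unadjusted p under 0.05 by edgeR, and limma on log2(RPKM + 1) and DESeq2 on exon counts also called 0. With the replicate block 3 of 6 passed in IP, mt-Atp8, mt-Atp6 and mt-Cytb.

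Between SMTseq0.25 and SMTseq4 no member passed. The log2 differences lay between 0.07 and 0.38 in input and between 0.01 and 0.16 in IP, with standard errors of 0.13 to 0.42, and 0.0% of all genes passed in either fraction and either fit. The largest was mt-Co1 in input, at 0.38 ± 0.170. By edgeR on these reads 0 of 6 members had an unadjusted p under 0.05 in either fraction, in the exon counts 1 of 2 did in input and 0 of 2 in IP, and limma and DESeq2 called 0.

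NEB, like TruSeq, selects poly(A) RNA, and unlike Tru4 it was size selected. In input, NEB against Tru4 was lower for mt-Atp8 (-1.39 ± 0.266, adjusted p = 0.0258), mt-Atp6 (-1.04 ± 0.215, adjusted p = 0.0297) and mt-Cytb (-0.88 ± 0.202, adjusted p = 0.0423), against 8.99% of all genes called. mt-Co1, mt-Co2 and mt-Co3 had differences of -0.77, -0.59 and -0.66 and did not pass. With the replicate block all 6 passed, without any 1 replicate 0 did, and with library totals in place of TMM factors 1 did. In the exon counts mt-Cytb had -0.85 ± 0.187 (adjusted p = 0.0376), against 9.06% of all genes, and this call was lost without any 1 replicate and with library totals. In IP no member passed, against 0.142% of all genes (4.79% in the exon counts). There 3 of 6 had an unadjusted p under 0.05 by edgeR, limma called 0 and DESeq2 on exon counts called 1 of 2.

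NuG changed the proportions of the members. In input, mt-Co2 was lower than in Tru4 by -0.92 ± 0.119 (adjusted p = 2.3e-04), mt-Co3 by -0.47 ± 0.102 (adjusted p = 0.0041) and mt-Atp8 by -0.58 ± 0.160 (adjusted p = 0.0138). mt-Co1 was higher by 0.90 ± 0.122 (adjusted p = 3.0e-04). mt-Cytb was higher by 0.49 ± 0.116 (adjusted p = 0.0067), but this turned to -0.06 with library totals and -0.02 on log2(RPKM + 1), and neither passed. On log2(RPKM + 1) the median of all genes in NuG against Tru4 was -0.85 in input. These 5 of 6 members stood against 51.8% of all genes called, and without replicate 2 only 2 of 6 passed. In IP, mt-Co1 was higher by 1.37 ± 0.220 (adjusted p = 8.1e-04), mt-Cytb by 0.89 ± 0.222 (adjusted p = 0.0082) and mt-Atp8 by 0.94 ± 0.349 (adjusted p = 0.0488), and mt-Co2 was lower by -0.71 ± 0.243 (adjusted p = 0.0339), against 49.7% of all genes. Without replicate 2 or without replicate 3, 1 of 6 passed. With the replicate block 5 of 6 passed in IP, mt-Atp6 being the added one at 0.54 ± 0.130 (adjusted p = 0.0040). In the exon counts mt-Cytb and mt-Co1 were higher in NuG in input (0.97 ± 0.129 and 1.51 ± 0.145) and in IP (1.36 ± 0.221 and 2.55 ± 0.283), with the highest adjusted p at 5.2e-04, against 50.9% and 49.8% of all genes. With library totals the exon count difference of mt-Cytb in input was -0.05 and did not pass.

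SMTseq4 was lower than Tru4 in input for 5 of 6 members, with -1.98 ± 0.193 for mt-Co1 (adjusted p = 6.8e-05), -1.67 ± 0.211 for mt-Atp8, -1.48 ± 0.158 for mt-Cytb, -1.32 ± 0.164 for mt-Co2 and -0.99 ± 0.179 for mt-Atp6 (adjusted p = 0.0020). mt-Co3 had -0.11 ± 0.150 and did not pass. All genes passed at 48.3%, and the 5 members remained called without any 1 replicate. In IP only mt-Cytb passed (-0.76 ± 0.231, adjusted p = 0.0367), against 28.9% of all genes. The count in IP was 3 with the replicate block, 3 without replicate 1 and 0 without replicate 2 or 3. In the exon counts mt-Cytb (-1.23 ± 0.157) and mt-Co1 (-2.46 ± 0.182) were lower in input, against 46.5%, as was mt-Co2 with its few counts (-7.23 ± 1.34), and mt-Co1 was lower in IP (-1.03 ± 0.270, adjusted p = 0.0214), against 24.9%.

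SMTer had all 6 members lower than Tru4 in input, by -1.04 ± 0.160 for mt-Cytb to -2.26 ± 0.166 for mt-Co2, against 47.1% of all genes. This count stayed at 6 without any 1 replicate. In IP, mt-Co3 (-2.37 ± 0.211), mt-Co2 (-2.14 ± 0.292) and mt-Atp6 (-0.61 ± 0.194, adjusted p = 0.0282) were lower, against 50% of all genes. With the replicate block, without replicate 1 or with limma on log2(RPKM + 1) all 6 passed in IP, and without replicate 2 or 3 only 2 did. In that limma fit 83.2% of all genes passed in input and 71.2% in IP, with medians of -0.91 and -0.94.

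mt-Atp8 and mt-Atp6 are cut out together as a single mRNA with overlapping reading frames, so their RPKM ratio compares the 204 bases of mt-Atp8 with its neighbour of 681 bases in the same molecule. The ratio in input was 1.03, 1.09 and 1.17 in Tru4 and 0.356, 0.414 and 0.410 in Tru70. It was 0.755, 0.973 and 0.840 in NEB, 0.791, 0.736 and 0.736 in NuG and 0.639, 0.733 and 0.694 in SMTseq4, and the means of SMTseq0.25 and SMTer were 0.691 ± 0.0417 and 0.538 ± 0.0206. Every Tru4 input library lay above every library of the 6 other protocols. The exact permutation test, two-sided, gave p = 0.1 for each, which is the smallest that 3 against 3 libraries allow, and 0.1 after Benjamini-Hochberg adjustment over 6 comparisons. In IP the ratio was 0.299, 0.641 and 0.628 in Tru4 and 0.0899, 0.193 and 0.213 in Tru70 (exact permutation p = 0.1, adjusted p = 0.3), and NEB, SMTer and both SMART-Seq v4 protocols overlapped with Tru4.

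**Figure D5:**
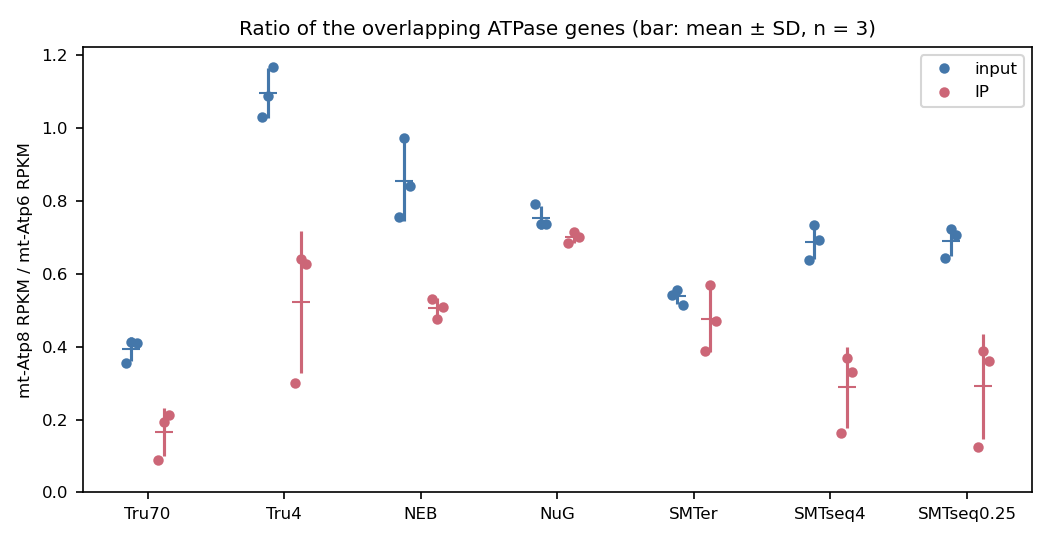
Ratio of mt-Atp8 RPKM to mt-Atp6 RPKM (y axis, from 0) in input (blue) and IP (red) by protocol, with points for the 3 mice and a bar for mean ± SD. Tru4 input is highest at 1.03 to 1.17, and Tru70 has the lowest mean in both fractions.

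In the exon counts, mt-Co1 made up 60.6% of the counts of the members in Tru4 input, 62.8% in Tru70, 64.9% in NEB, 69.1% in NuG, 39.6% in SMTseq4 and 44.8% in SMTseq0.25. All protocols but Tru70 lay apart from Tru4 without overlap, each at p = 0.1 in the two-sided exact permutation test, and 0.125 after adjustment over 5 comparisons. In IP the percentages were 54.3% in Tru4, 55.2% in Tru70, 62.2% in NEB, 73.2% in NuG, 45.1% in SMTseq4 and 43.6% in SMTseq0.25. Exon counts hold only part of the mt-Co1 reads, and that part differed by protocol. The exon count of mt-Co1 per 100 reads behind the RPKM was 32.4 in Tru4 input and 20.2 in SMTseq4 input.

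The other mtDNA genes were lower in IP too. All 7 subunits of complex I (mt-Nd1 to mt-Nd6 and mt-Nd4l) had lower RPKM in IP in 3 of 3 mice in every protocol, with medians from -1.70 in NuG to -4.50 in Tru4. In Tru70 they ranged from -5.13 for mt-Nd5 to -1.25 for mt-Nd1, which lies above mt-Co3. The rRNAs mt-Rnr1 and mt-Rnr2 had -2.71 ± 0.274 and -2.59 ± 0.298 in Tru70. The share of all genes that were lower in 3 of 3 mice is not given here.

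Nuclear genes for the same complexes were lower in IP or did not pass. Of 35 subunits of complexes III, IV and V, 34 were tested in Tru70, 16 were lower in IP and 0 higher by edgeR's quasi-likelihood test, against 16.7% of all genes called lower. The counts lower in IP were 21 of 34 in Tru4 (24.2% of all genes), 21 of 34 in SMTseq4 (28.7%), 19 of 34 in SMTseq0.25 (17.1%), 30 of 32 in NuG (20.9%) and 8 of 32 in NEB (5.34%). By limma the count was 3 of 32 in SMTer, near the 6.99% of all genes, and 0 were higher in any protocol. The median log2 change in Tru70 was -0.85 for complex III, -0.64 for complex IV and -0.84 for complex V, against -0.03 over all genes, and in NuG it was -1.61, -1.24 and -1.27. These are TMM-scaled fits of exon counts, a scale other than the RPKM ratios of the members, and no test between them was made. The lowest were Uqcrc2 (a core protein of complex III, -2.10 ± 0.262, adjusted p = 3.0e-04) and Cyc1 (cytochrome c1, -1.80 ± 0.202, adjusted p = 1.6e-04), and the highest were Atp5l (0.39 ± 0.507) and Cox5a (0.12 ± 0.216), which did not pass.

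Across the 36 libraries outside SMTer, the genes outside mtDNA whose log2(CPM + 1) followed the summed members most closely were Pzp (a secreted protease inhibitor of liver, Pearson r = 0.95), Cat (catalase, 0.95), Hc (complement C5, 0.93), Cps1 (the entry enzyme of the urea cycle, 0.92) and F9 (coagulation factor IX, 0.92), out of 9031 genes with a mean CPM of at least 10. These libraries share mice and kits and fall into input and IP, so the coefficients mostly describe that split. Pzp did not overlap between the fractions over these libraries, with 1456 to 3688 CPM in input and 244 to 1168 CPM in IP. The other 4 overlapped, as Cps1 did with 858 to 2504 CPM in input and 114 to 1196 CPM in IP.

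Cell type markers moved with the fraction as well. In the 6 protocols with exon counts, 6 to 8 of 8 hepatocyte genes were lower in IP without overlap, with summed levels of 62686 to 182967 CPM in input and 23629 to 31787 CPM in IP, so that the labelled tissue was clear in both. All 6 Kupffer cell genes (at most 320 CPM in input, 6047 to 17094 CPM in IP), all 6 erythroid genes (369 to 2511 CPM against 16469 to 225811 CPM) and all 5 T cell genes (0.0447 to 8.31 CPM against 57.3 to 278 CPM) were higher in IP. Of 6 neutrophil genes, 2 to 6 were higher (0 to 8.02 CPM against 60.2 to 324 CPM), and up to 4 were at 0 in input. Of 5 endothelial genes, 1 or 2 were higher and 0 to 3 lower (93.7 to 182 CPM against 102 to 237 CPM). Gfi1 itself had 0 to 0.288 CPM in input and 0 to 3.41 CPM in IP. These marker counts are of genes without overlap between the fractions, and the share of all genes without overlap is not given here. By the edgeR fit, another measure, 704 of 12099 genes were higher and 646 lower in IP in NEB. In SMTseq4 4594 of 15091 were higher and 4334 lower. The part of these cell types in the levels of the mtDNA genes was not tested. Exon count totals ran from 464199 in SMTer to 45466334 in Tru4 and mapped reads from 10275877 to 124537457, so that 3 counts correspond to between 0.0660 and 6.46 CPM.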

How the data were processed

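Liver input and HA-IP RNA of 3 mice was sequenced with 7 protocols (42 libraries). Per the study's methods, adapters were removed (Trimmomatic), reads cut to 60 bases and aligned by the authors with TopHat to GRCm38, allowing several alignments per read and 2 mismatches. The authors deposited exon counts (whole counts per Ensembl gene, not normalized, without reads of more than 1 alignment) and RPKM values (per kilobase, scaled to mapped reads, multiple alignments included) for 47729 genes. RPKM was used for SMTer. Replicates were not pooled.

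From these, CPM, shares of all counts and ratios within each mouse were computed here. The members and all gene lists were chosen with earlier results of these data known. Named genes are the 6 members, their annotated copies (at least 95% identity over 100 bases, searched with blastn in GENCODE M21 transcripts in place of a genome), the 5 genes of highest correlation, and the 2 highest and 2 lowest nuclear subunits in Tru70. Of 47729 identifiers, 47310 had a gene span. RPKM times span times mapped reads was within 0.02 of a whole number for 84.8% of values above 0, and for 42357 genes in all libraries. These reads were fitted as an addition.

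Tests used edgeR 4.0.16 (TMM, filterByExpr, quasi-likelihood), limma 3.58.1 with a mean trend on log2(RPKM + 1) of genes with RPKM of at least 1 in 3 libraries (SMTer), DESeq2 1.42.0 as an alternative, R 4.3.3 and Python 3.11.15. An adjusted p (Benjamini-Hochberg over all genes) under 0.05 counted as passed. The scripts were tested on simulated data. Replicate numbers were taken to mark the same mouse. The read totals listed by the study run in the opposite order of replicates in Tru70, Tru4, NEB, NuG and SMTer. For NEB input, the total of 22373163 is listed for replicate 1 and belongs to replicate 3 here. The SMART-Seq v4 totals agree in order. The correlation of same-numbered deviations from the group means in input and IP was 0.023 to 0.506 over 21 pairs. In NEB it was 0.038 to 0.067 and in SMTer 0.023 to 0.090, so that ratios within mice rest there on the numbers alone. Fractions were exchanged for 8 libraries, after which the number of genes with counts equalled the number the study lists in 42 of 42 libraries (34 with the labels). Tried alternatives were the labelled fractions, each replicate left out, other totals, the other deposited unit, copies added, library totals, DESeq2, no filter, the replicate block and a pseudocount of 0.1. Intervals of counting error are not given, and the floor is 3 counts.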

Additional observations from a re-analysis of the deposited data

Results flagged for a closer look

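The exon counts of the chromosome 1 copies stood above input in some IP libraries, although the copies share nearly all stretches of 60 bases with the mtDNA genes. Gm28437, the copy of mt-Co3, reached 171 CPM (3076 counts) in the Tru4 IP of mouse 1, against at most 0.671 CPM in Tru4 input, and it had no count in the Tru4 IP of mouse 2. In the NuG IP it reached 1.55 CPM (5 counts) in mouse 3, against at most 0.267 CPM in input. Gm28661, the copy of mt-Co2, reached 10.3 CPM (294 counts) in the Tru4 IP of mouse 2, against at most 1.21 CPM in input, and had no count in mouse 1. In NEB and SMTseq4 both copies had no count in either fraction. These counts are of reads outside the comparisons of the members, and what they come from was not tested.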

How the results depend on the processing

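All 42 libraries entered every alternative unless named. The alternatives that use reads behind the RPKM, and those of the mt-Atp8 to mt-Atp6 ratio, were chosen after seeing the data. For the log2 ratio of the summed share, the labelled fractions gave -1.43 in NEB, -0.77 in NuG, -1.58 in SMTer and -1.51 in Tru4. The other deposited unit gave -1.04 in SMTer, -4.29 in SMTseq0.25, -4.25 in SMTseq4 and -3.80 in Tru70. In SMTer that unit is the exon counts, where 76.8% to 93.8% of counted and unassigned reads had no feature. Reads behind the RPKM over mapped reads gave -3.86 in NEB, -2.68 in NuG, -3.84 in Tru4 and -3.34 in Tru70. In NuG the total with unassigned reads gave -2.77 and the total without mtDNA, rRNA and copies -3.46. It was below 0 in all of these. For IP against input, the number of members called was 0 with the labelled fractions in NEB, NuG, SMTer and Tru4. It was 6 in all protocols but SMTer with the other unit and with reads recovered from RPKM, by TMM or library totals, because more members were then tested. In SMTer it was 2 with exon counts and 3 without the filter.

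For protocols against Tru4 in the deposited unit, the labelled fractions gave 0 members called in input for Tru70, NEB, NuG and SMTseq4 and in IP for NuG and SMTseq4, and 1 for SMTer in both. Without the filter 2 were called for Tru70 in input and for SMTer in IP. DESeq2 called 2 for Tru70 and NEB in input and 1 for NEB in IP, and library totals 0 for NEB and 1 for NuG in input. With one replicate left out, the count was 0 to 1 for Tru70 and 0 to 0 for NEB in input, 0 to 2 for SMTseq4 and 2 to 6 for SMTer in IP. On reads behind the RPKM, the labelled fractions gave 0 for Tru70, NEB, NuG, SMTseq4 and SMTer in input and for NuG, SMTseq4 and SMTer in IP. Library totals gave 1 for NEB in input, and in IP 2 for NuG, 2 for SMTseq4 and 6 for SMTer, as did limma on log2(RPKM + 1) in IP. Without the filter, 2 were called for SMTseq4 and 5 for SMTer in IP. With one replicate left out the count was 0 to 1 for Tru70, 0 to 0 for NEB and 2 to 5 for NuG in input, and 1 to 5 for NuG, 0 to 3 for SMTseq4 and 2 to 6 for SMTer in IP. The cause of these changes was not tested.

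With the replicate block, the deposited unit gave 2 members called for Tru70 and NEB in input and for Tru70 and SMTseq4 in IP, and reads behind the RPKM gave 6 for Tru70 and NEB in input and 3 for Tru70, 5 for NuG, 3 for SMTseq4 and 6 for SMTer in IP. With the labelled fractions, the mt-Atp8 to mt-Atp6 ratio in input minus that of Tru4 was -0.174 in NuG, -0.393 in SMTer, -0.226 in SMTseq0.25, -0.228 in SMTseq4 and -0.523 in Tru70. The log2 difference of mt-Cytb between NuG and Tru4 input turned to -0.0152 with limma and -0.0613 with library totals, and that of mt-Atp8 in IP to -0.98 with the labelled fractions.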
